A study of Mus musculus with 4 samples.

Results

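The genes of the proteasome were described in mouse lung tumours driven by oncogenic K-Ras, with and without deletion of Mll4, a histone methyltransferase. Members were taken by name, under a rule set with earlier results of these data known. The rule took every gene symbol made of Psma, Psmb, Psmc, Psmd, Psme, Psmf or Psmg and a number, leaving out Psmb8, Psmb9 and Psmb10, the interferon-inducible catalytic subunits. This gave 45 of the 24391 genes listed, and 44 of them were among the 16001 genes with enough reads to be tested. The member below the limit was Psmb11, a subunit of the thymus.

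The proteasome degrades proteins that carry ubiquitin chains. Its 20S core is a barrel of outer alpha rings, which gate the entrance, and inner beta rings, which hold the proteolytic sites. The 19S cap binds ubiquitin chains and removes them, and a ring of ATPases at its base unfolds the substrate and feeds it into the core. Other caps, an inhibitor and dedicated assembly chaperones complete the system, which every cell uses and which tumour cells with high protein turnover are known to rely on.

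RNA was sequenced from 4 lung tumour samples, 2 titled K-Ras and 2 titled K-Ras Mll4-/-. The K-Ras tumours carried the K-Ras LSL-G12D allele, in which a stop cassette between lox sites keeps the mutant protein off until Cre recombinase cuts it out, and the K-Ras Mll4-/- tumours carried that allele together with floxed Mll4 (Mll4 fl/fl). Both groups therefore shared the K-Ras allele and differed in Mll4, and no sample of normal lung was compared. All tumours had been digested to single cells and depleted of cells bearing CD45, the leukocyte surface antigen encoded by Ptprc. The labels give neither the Cre source, nor the age of the mice, nor whether the replicates of a group came from separate mice, so every p-value measures only the spread between these samples.

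Reads in genes ran from 26683033 to 36677987 per sample, and outside the tissue-restricted subunits the tested members held between 91 reads (Psmg4) and 6834 reads (Psme4) in a sample. Kmt2d, taken here as the gene meant by Mll4 (a name also used for Kmt2b), had 395 and 526 CPM (reads scaled to a common library size, with TMM factors) in K-Ras and 367 and 317 in K-Ras Mll4-/-, a log2 difference of -0.43 ± 0.21 (SE; adjusted p = 0.302, edgeR's quasi-likelihood test with Benjamini-Hochberg adjustment). With offsets for GC content and transcript length it was -0.069, and without K-Ras replicate 2 it was -0.23. Reads over the whole gene do not show whether a floxed part was removed. Ptprc was still present, at 274 and 143 CPM in K-Ras and 269 and 171 in K-Ras Mll4-/-. The groups also differed in cell markers, none of which were at 0: all 7 proliferation markers were higher in both K-Ras Mll4-/- samples (summed 201 to 209 CPM in K-Ras, 356 to 373 in K-Ras Mll4-/-), 4 of 5 epithelial markers likewise (817 to 1339, and 2806 to 2860), and all 8 ciliated cell markers were lower (131 to 769, and 69.2 to 78.5). Of fibroblast markers 5 of 6 were lower (1121 to 2464, and 837 to 850), and of endothelial markers 6 of 8 (4657 to 4821, and 2680 to 3490), while the leukocyte markers overlapped for 9 of 10 (4637 to 5217, and 3374 to 5289). Alveolar type 2 markers did not follow the epithelial ones: 4 of 6 overlapped, with 3 differences above 0 and 3 below (14956 to 25030, and 21272 to 22364). All 4 club cell markers had negative differences, 2 of them without overlap (702 to 3588, and 566 to 743). The part of these markers in the proteasome values was not tested, and in bulk tumour RNA a different number of cells of a type and a different amount of RNA per cell cannot be told apart.

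Promoters were read from RefSeq (mouse build GRCm38.p6), from 250 bases before to 50 after each annotated start, and 37 of the 45 members had an entry, with 40 promoters among them. Each was searched on both strands for the letters TGACNNNGC, the core of the antioxidant response element bound by NRF1 and NRF2, for CCGGAAG, a core of Ets factor sites, and for CCAAT, the CCAAT box. None of the 48 matches overlapped a match of another of these motifs. The windows below were chosen, after the expression values were seen, to set motif letters beside members with unlike differences: Psmb5 and Psmd9 hold the same antioxidant response core and lay on opposite sides of 0, Psmd11 and Psmg1 hold the Ets core and had the highest log2 differences, and Psma2 holds a CCAAT box. Capitals mark the motif, and each line runs 5′ to 3′ on the strand of the gene.
Psmb5 (chr14:54618023-54618092, minus strand): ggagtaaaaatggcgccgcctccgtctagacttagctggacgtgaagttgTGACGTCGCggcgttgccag
Psmd9 (chr5:123228120-123228189, plus strand): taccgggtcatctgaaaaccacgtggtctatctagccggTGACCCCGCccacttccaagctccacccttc
Psma2 (chr13:14613153-14613222, plus strand): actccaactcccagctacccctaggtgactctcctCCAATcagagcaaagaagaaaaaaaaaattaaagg
Psmd11 (chr11:80428545-80428614, plus strand; the motif lies on the other strand): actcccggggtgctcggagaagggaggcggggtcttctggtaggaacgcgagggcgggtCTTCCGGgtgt
Psmg1 (chr16:95990993-95991062, minus strand): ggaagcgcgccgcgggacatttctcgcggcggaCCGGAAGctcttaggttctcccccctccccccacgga

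The Ets core was found in 37.5% of the member promoters (14 members) and in 8.86% of all 32851 RefSeq promoters of this length. Promoters of other gene lists, or promoters matched in GC content, were not compared, so this share is not shown to be particular to the proteasome. The antioxidant response core was in 15% of the member promoters (Psmb5, Psmb6, Psmc6, Psmd9, Psmd12 and Psme4) and in 12.4% of all, and the CCAAT box in 32.5% and 37.4%. The difference between the groups was then compared for members with and without each motif. The median log2 difference was 0.20 for the 6 tested members with the antioxidant response core and 0.22 for the 30 without it, with a range of -0.24 (Psmd9) to 0.36 (Psmb5) among the 6. It was 0.20 for the 14 with the Ets core against 0.21 for the 22 without it, and 0.30 for the 12 with a CCAAT box against 0.19 for the 24 without. All 12 tested members with a CCAAT box had a positive difference, as did 18 of the 24 without. With offsets for GC content and transcript length Psma1 and Psma6, both among the 12, stood at -0.012 and -0.0036. The 12 also include Psma2, Psma3 and Psma7, so that much of the alpha ring is among them and motif and role cannot be told apart. The difference by motif was not tested. A match of letters is a description and not a bound site.

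Proteasome genes were, in most cases, slightly higher in the K-Ras Mll4-/- samples than in the K-Ras samples, and no member passed the test. The median log2 difference of the 44 tested members was 0.22, with quartiles of 0.12 and 0.34, against -0.01 over all genes tested, a gap of 0.24. With offsets for GC content and transcript length the medians were 0.17 and 0.03 and the gap was 0.14. The difference was above 0 for 37 members (84.1%), where 48.8% of all genes tested were above 0. The largest positive differences were those of Psmg1 (0.59), a chaperone of core assembly, and Psmd11 (0.57), a subunit of the 19S lid, and the most negative those of Psma8 (-0.28), the testis form of an alpha subunit, and Psmd9 (-0.24), a chaperone of cap assembly.

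**Figure D1:**
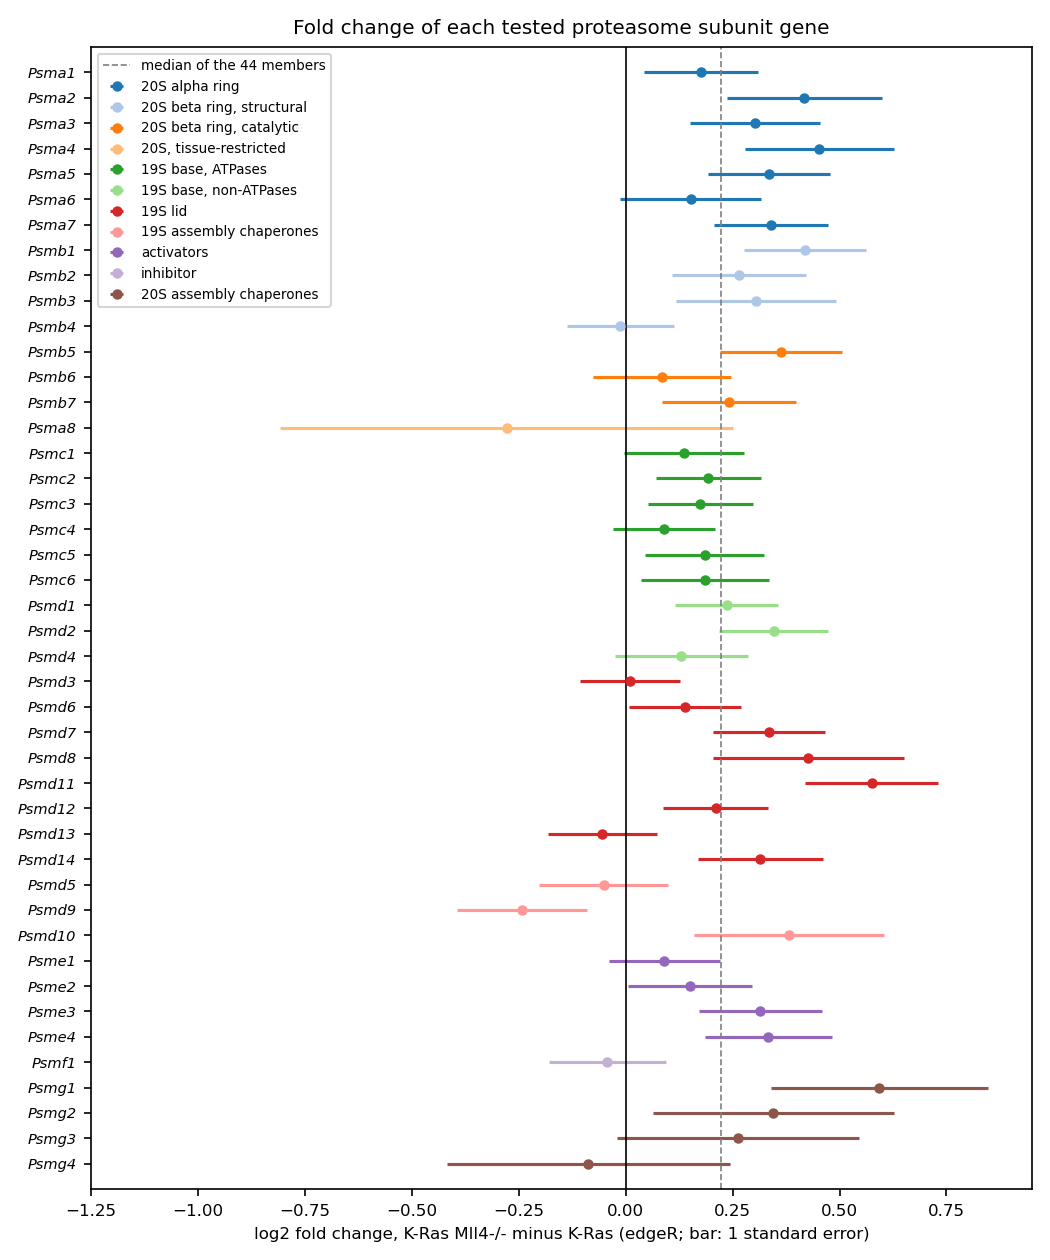
Log2 fold change (x axis, K-Ras Mll4-/- minus K-Ras, from edgeR; bars are 1 standard error) of each of the 44 tested members (y axis), coloured by role, with a dashed line at their median of 0.22. Nearly all core and cap subunits lie right of 0, and Psma8, with the fewest reads, has the longest bar.

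By edgeR's quasi-likelihood test 0 of 44 members had an adjusted p under 0.05, where 0.0375% of all genes tested did, and the smallest adjusted p of a member was 0.177 (Psmd11). At an unadjusted p under 0.05, 3 members were higher (Psmd11, Psmb1 and Psmd2), which is 6.82% of the members against 11.4% of all genes tested, and 0 were lower, against 10.4%. Tests that call many more genes here also called 0 members: DESeq2 called 10.4% of the genes to which it gave an adjusted p, and edgeR's likelihood ratio test called 9.39% of all genes. Limma-voom called 0 of all genes. Counting samples gave another picture. Both K-Ras Mll4-/- samples lay above both K-Ras samples for 28 members (63.6%; all genes 29.9%), both lay below for 1 member, Psmd9 (2.27%; all genes 28.5%), and the groups overlapped for 15. The count of 28 was 20 when counts were scaled to total reads, 22 with upper quartile scaling and 23 with offsets for GC content and transcript length. The shares of all genes under those settings are not given here.

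One K-Ras sample set much of the size of this difference. K-Ras replicate 2 was the lowest of the 4 samples for 34 members (77.3%), against 27% of all genes tested. The sample with the highest value was K-Ras Mll4-/- replicate 2 for 20 members and K-Ras Mll4-/- replicate 1 for 17. Set against each gene's mean over the 4 samples, the median member stood at -0.20 on the log2 scale in K-Ras replicate 2, at -0.0011 in K-Ras replicate 1, and at 0.12 and 0.11 in K-Ras Mll4-/-. The low value of K-Ras replicate 2 was not particular to the proteasome. There the same median was -0.50 for cytosolic ribosomal protein genes and -0.38 for the genes of the chaperonin CCT. In K-Ras replicate 1 those medians were -0.094 and -0.26. Without K-Ras replicate 2 the median log2 difference of the members was 0.09 in place of 0.22, and without K-Ras replicate 1 it was 0.29. Leaving out K-Ras replicate 2 made the difference of 23 members smaller by over 1.5 times, larger by as much for 6, and changed the sign of 5. Leaving out K-Ras replicate 1 made it larger by over 1.5 times for 20 members, smaller for 2, and changed the sign of 4. Summed over the members, the level was 2545 and 2251 CPM in K-Ras, and 2811 and 2847 CPM in K-Ras Mll4-/-. In K-Ras replicate 2 the summed markers of ciliated cells (769 CPM, against 131 in replicate 1) and of club cells (3588, against 702) were also high, and the part of those cells in the proteasome values was not tested.

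**Figure D2:**
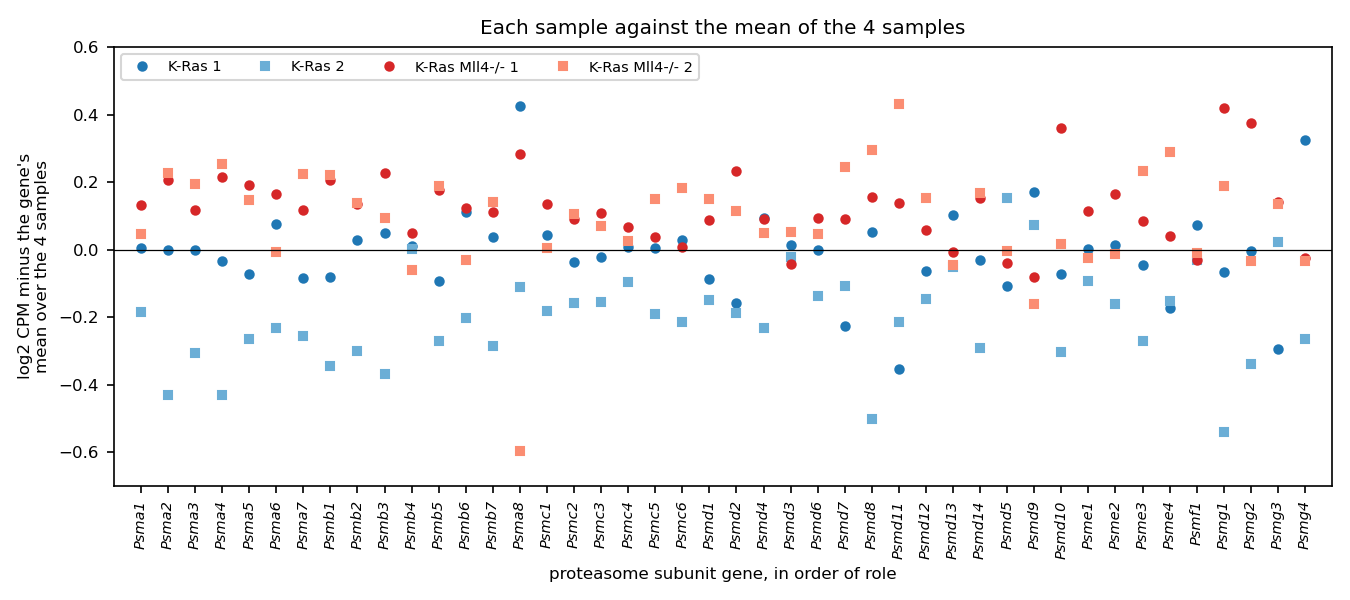
Log2 CPM of each of the 44 tested members in each sample, minus the mean of that gene over the 4 samples (y axis), with the members in order of role (x axis). K-Ras replicate 2 (light blue squares) is lowest for 34 members, while K-Ras replicate 1 (dark blue circles) lies close to 0 for most core subunits.

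All 7 genes of the alpha ring of the core, Psma1 to Psma7, had positive differences, from 0.15 to 0.45 with a median of 0.34, although with offsets for GC content and transcript length Psma1 stood at -0.012 and Psma6 at -0.0036. For 6 of the 7 the groups did not overlap. Psma4 had 57.2 and 43.4 CPM in K-Ras and 67.9 and 69.8 in K-Ras Mll4-/-. Its K-Ras Mll4-/- samples were close to each other and above both K-Ras samples, of which replicate 2 was the lower. Its log2 difference was 0.45 ± 0.17 (SE; adjusted p = 0.233), the highest of the ring. Psma6, the lowest of the ring, had 50.4 and 40.6 CPM in K-Ras and 53.6 and 47.5 in K-Ras Mll4-/-. Here the groups overlapped, since K-Ras replicate 1 lay between the K-Ras Mll4-/- samples, and the log2 difference was 0.15 ± 0.16 (adjusted p = 0.616). Without K-Ras replicate 2 it was -0.01. Psma2, whose CCAAT box is printed above, had a difference of 0.42 and Psma7 one of 0.34.

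Of the beta ring subunits without a proteolytic site, Psmb1 to Psmb4, 3 of 4 had positive differences and the median was 0.28. Psmb1 had 74.2 and 61.8 CPM in K-Ras and 90.5 and 91.4 in K-Ras Mll4-/-. Its groups were well apart, with a difference of 0.42 ± 0.14 (adjusted p = 0.207). Psmb4 was level in all samples, at 37.0 and 36.8 CPM in K-Ras and 38.0 and 35.2 in K-Ras Mll4-/-. Its difference was -0.01 ± 0.13 (adjusted p = 0.963), and the K-Ras Mll4-/- samples stood on both sides of the K-Ras samples. Psmb2 (0.26) and Psmb3 (0.31) lay near the group's median, and for both the groups did not overlap. Without K-Ras replicate 2 they stood at 0.094 and 0.095.

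The 3 catalytic subunits had unequal differences. Psmb5, which carries the chymotrypsin-like activity blocked by bortezomib, had 24.9 and 22.1 CPM in K-Ras and 30.1 and 30.3 in K-Ras Mll4-/-. Both K-Ras Mll4-/- samples were above both K-Ras samples, and the log2 difference was 0.36 ± 0.14 (adjusted p = 0.240). Psmb7, with the trypsin-like activity, had 52.6 and 42.1 CPM in K-Ras and 55.5 and 56.5 in K-Ras Mll4-/-. Its samples did not overlap either, but K-Ras replicate 1 lay near the K-Ras Mll4-/- samples, and the difference was 0.24 ± 0.16 (adjusted p = 0.412), or 0.074 without K-Ras replicate 2 and 0.14 with the GC and length offsets. The latter is also the median of the 3 with those offsets. Psmb6, with the caspase-like activity, had 94.0 and 75.5 CPM in K-Ras and 94.6 and 85.2 in K-Ras Mll4-/-. Its groups overlapped, with a difference of 0.09 ± 0.16 (adjusted p = 0.784) that stood at -0.08 without K-Ras replicate 2. Whether these 3 differences differ from each other was not tested.

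The tissue-restricted core subunits were near the limit of detection. Psma8, which replaces Psma7 in the testis, had 27 and 22 reads in K-Ras and 21 and 14 in K-Ras Mll4-/-. The groups overlapped, and the log2 difference of -0.28 ± 0.53 (adjusted p = 0.785) had the widest error of any member. Psmb11, the thymus form of Psmb5, had 1 and 0 reads in K-Ras and 1 and 0 in K-Ras Mll4-/-, all under the 3 reads that a count of 0 allows (0.083 to 0.114 CPM per library).

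Within the 19S base, the 6 ATPases that form the unfolding ring were closely grouped. All of Psmc1 to Psmc6 had positive differences between 0.09 and 0.19, with a median of 0.18. Psmc2, the highest, had 50.9 and 46.8 CPM in K-Ras and 55.6 and 56.1 in K-Ras Mll4-/-. The groups did not overlap, and the difference was 0.19 ± 0.12 (adjusted p = 0.400). Psmc4, the lowest, had 65.8 and 61.2 CPM in K-Ras and 68.6 and 66.6 in K-Ras Mll4-/-. Those samples were also apart, by less than 1 CPM between the nearest of them, and the difference was 0.09 ± 0.12 (adjusted p = 0.687). Psmc1 and Psmc6 were the ATPases whose groups overlapped. Without K-Ras replicate 2 the median of the ATPases was 0.06.

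The other base subunits are Psmd1 and Psmd2, the large scaffolds, and Psmd4, a ubiquitin receptor. Psmd2 had 144 and 141 CPM in K-Ras and 188 and 173 in K-Ras Mll4-/-. The K-Ras samples were nearly level and both lay below the K-Ras Mll4-/- samples, with a log2 difference of 0.35 ± 0.13 (adjusted p = 0.223). That value varied little when single samples were left out or the scaling was changed, from 0.29 to 0.41 over all alternatives. Psmd1 had a difference of 0.24, also with no overlap. Psmd4 had 86.9 and 69.2 CPM in K-Ras and 86.6 and 84.2 in K-Ras Mll4-/-. Only K-Ras replicate 2 stood apart, and the difference was 0.13 ± 0.16 (adjusted p = 0.653), or -0.04 without that sample.

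The lid, which removes the ubiquitin chain, had 7 of 8 subunits with positive differences and a median of 0.26, which was 0.16 with offsets for GC content and transcript length. Psmd11, a lid subunit that holds core and cap together, had 44.0 and 48.5 CPM in K-Ras and 62.0 and 75.9 in K-Ras Mll4-/-. The lower K-Ras Mll4-/- sample was above the higher K-Ras sample by more than the K-Ras samples differed, and the log2 difference was 0.57 ± 0.16 (adjusted p = 0.177). Over all alternatives it stayed between 0.41 and 0.71, and its adjusted p was at least 0.0997. Psmd13 had 48.7 and 43.8 CPM in K-Ras and 45.1 and 44.0 in K-Ras Mll4-/-. Its K-Ras Mll4-/- samples lay between the K-Ras samples, with a difference of -0.05 ± 0.13 (adjusted p = 0.830). Psmd14, the deubiquitinating enzyme of the lid, had a difference of 0.32, which was 0.18 without K-Ras replicate 2 and 0.15 with the GC and length offsets. Psmd8 had one of 0.43, which ranged from 0.16 without K-Ras replicate 2 to 0.73 without K-Ras replicate 1. Psmd3 was at 0.01, and at -0.05 and -0.04 with upper quartile or total count scaling. The others, Psmd6, Psmd7 and Psmd12, lay between 0.14 and 0.33, and none of the 3 overlapped.

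The chaperones that assemble the ATPase ring were the one group of 3 or more with a median below 0, at -0.05, and they went different ways. Psmd9 had 21.0 and 19.6 CPM in K-Ras and 17.6 and 16.7 in K-Ras Mll4-/-. It was the only member with both K-Ras Mll4-/- samples below both K-Ras samples, and the log2 difference was -0.24 ± 0.15 (adjusted p = 0.397). Its exons share 1849 bases with Gm26745, a long noncoding RNA on the opposite strand, and whether the authors' counts used strand is not given in the sources used here. Psmd10, also known as gankyrin, had 10.9 and 9.30 CPM in K-Ras and 14.7 and 11.6 in K-Ras Mll4-/-. Those samples did not overlap, with a difference of 0.38 ± 0.22 (adjusted p = 0.368). Psmd5 overlapped at -0.05. The median of this group of 3 was 0.07 without K-Ras replicate 2 and -0.18 without K-Ras replicate 1.

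The chaperones that assemble the core, Psmg1 to Psmg4, were the members with the fewest reads apart from the tissue-restricted ones, and had a median difference of 0.30. Psmg1 had 9.48 and 6.83 CPM in K-Ras and 13.3 and 11.3 in K-Ras Mll4-/-. The groups did not overlap, and its log2 difference of 0.59 ± 0.25 (adjusted p = 0.259) was the highest of all members. It was 0.36 without K-Ras replicate 2, below Psmd11 at 0.63, Psmg3 at 0.42 and Psmd7 at 0.38, and 0.85 without K-Ras replicate 1. Psmg2, with which Psmg1 forms a dimer, stood at 0.35 with overlapping groups. Psmg4 had 4.41 and 2.93 CPM in K-Ras and 3.47 and 3.44 in K-Ras Mll4-/-. Both K-Ras Mll4-/- samples lay between the K-Ras samples, with a difference of -0.09 ± 0.33 (adjusted p = 0.899). Psmg3, its partner, was at 0.26.

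Of the alternative caps, Psme1 and Psme2 form the interferon-inducible activator, Psme3 the nuclear one, and Psme4 the large activator known as PA200. Psme4 had 154 and 156 CPM in K-Ras and 179 and 212 in K-Ras Mll4-/-. The groups did not overlap, and the log2 difference was 0.33 ± 0.15 (adjusted p = 0.270). Psme1 had 129 and 121 CPM in K-Ras and 139 and 126 in K-Ras Mll4-/-. Here they overlapped, at 0.09 ± 0.13 (adjusted p = 0.708). Psme3 (0.32) was close to Psme4, and Psme2 (0.15) close to Psme1. Psmf1, an inhibitor of the core, had 26.8 and 24.9 CPM in K-Ras and 24.9 and 25.3 in K-Ras Mll4-/-. Its groups overlapped, and the difference was -0.04 ± 0.14 (adjusted p = 0.878).

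By complex, the 14 constitutive core subunits had a median log2 difference of 0.30, with 13 above 0 and 11 not overlapping and higher, as were 29.9% of all genes tested. The 17 subunits of the cap had a median of 0.19, with 16 above 0 and 12 not overlapping and higher. The other 13 tested members had a median of 0.15, with 8 above 0 and 5 not overlapping and higher, a share near that of all genes. Without K-Ras replicate 2 the median was 0.20 in the alpha ring, 0.095 in the beta ring subunits without a site, 0.074 in the catalytic ones, 0.16 in the lid and 0.12 in the activators. The difference between core and cap was not tested across genes. Within a sample, the mean level of a cap subunit per length was 0.702 and 0.758 of that of a core subunit in K-Ras, and 0.686 and 0.720 in K-Ras Mll4-/-. These ratios overlapped between the groups.

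The balance between ordinary and interferon-inducible parts was taken as ratios of reads per coding length within a sample. The size of such a ratio depends on the length used. Per kb of coding sequence, the means over the 4 samples were 71.8 CPM for Psmb8 and 33.9 for Psmb5. Per kb of the longest transcript they were 36.5 and 29.9. Psmb8, the inducible counterpart of Psmb5, stood at 2.32 and 2.34 times Psmb5 in K-Ras and at 2.23 and 1.69 times in K-Ras Mll4-/-. Both K-Ras Mll4-/- ratios were lower, one of them only slightly. With 2 samples a group, an exact permutation test cannot give a two-sided p below 0.333. Psmb9 stood at 0.202 and 0.272 of Psmb6 in K-Ras and at 0.233 and 0.201 in K-Ras Mll4-/-. Psmb10 stood at 0.805 and 0.922 of Psmb7 in K-Ras and at 0.882 and 0.604 in K-Ras Mll4-/-. Both of these ratios overlapped between the groups. The inducible activator, Psme1 with Psme2, stood at 2.06 and 2.12 times Psme3 with Psme4 in K-Ras and at 2.01 and 1.61 times in K-Ras Mll4-/-. As with Psmb8, the lowest value was that of K-Ras Mll4-/- replicate 2, which also had the lowest sum of leukocyte markers, 3374 CPM. By the median marker, set against each gene's mean over the 4 samples, K-Ras replicate 2 was the lowest instead. The median marker stood at -0.43 on the log2 scale there, against -0.33 in K-Ras Mll4-/- replicate 2. Ptprc was also lowest in K-Ras replicate 2, at 143 CPM. That sample had the highest of both ratios, 2.34 and 2.12, and the part of leukocytes in these ratios was not tested. In CPM, Psmb8 had 60.5 and 53.9 in K-Ras and 70.0 and 53.6 in K-Ras Mll4-/-, Psmb9 had 17.5 and 18.9 against 20.3 and 15.8, and Psmb10 had 41.8 and 38.2 against 48.2 and 33.7. All 3 overlapped, with log2 differences of 0.11, -0.01 and 0.03.

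**Figure D3:**
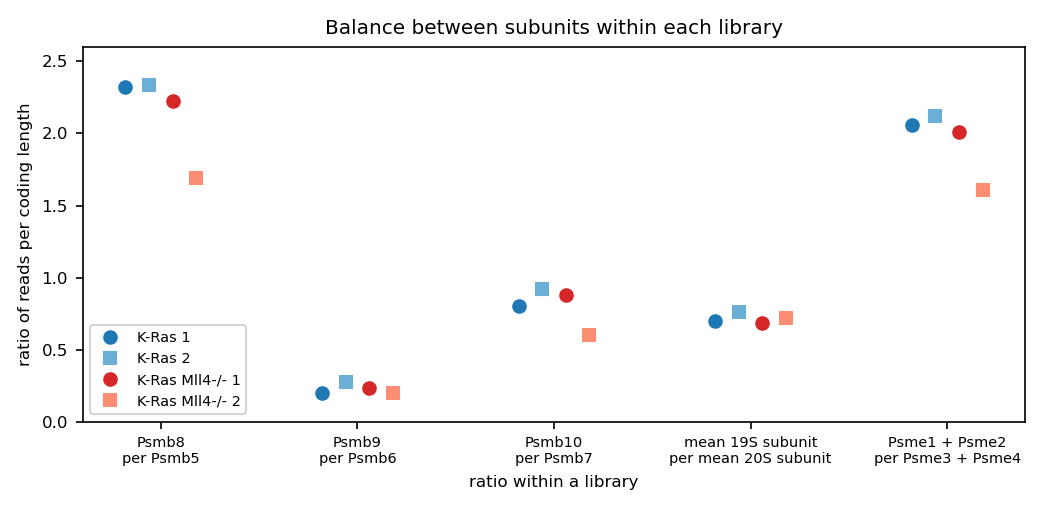
Ratios of reads per coding length within each sample (y axis, from 0) for 5 pairs of parts (x axis), with 1 point per sample. The ratio of Psmb8 to Psmb5 and that of Psme1 with Psme2 to Psme3 with Psme4 are lowest in K-Ras Mll4-/- replicate 2, at 1.69 and 1.61.

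Levels of the members were compared per kilobase of coding sequence, as means over the 4 samples. Subunits that are present once per ring or cap did not have equal transcript levels. The 14 constitutive core subunits ran from 33.9 CPM per kb (Psmb5) to 122 (Psmb6), a 3.61-fold range around a median of 76.4. The 17 cap subunits ran from 29.4 (Psmd6) to 129 (Psmd8), a 4.40-fold range around 49.3. The highest level of all members was that of Psme1 at 172 CPM per kb, and the core assembly chaperones were low, between 7.98 (Psmg2) and 11.8 (Psmg1). Psma8 stood at 0.909. With the longest transcript as the length, the core ran from 24.2 (Psma5) to 109 (Psmb6), a 4.52-fold range, and the cap from 20.2 (Psmd11) to 69.0 (Psmd8), a 3.41-fold range, so that which of them spanned the wider range depended on the length used. The order of 43 members by coding length and by transcript length had a Spearman correlation of 0.79. Thus Psmb6 kept the highest level of the core under both lengths, while the lowest was Psmb5 under one and Psma5 under the other. All points come from the same 4 libraries.

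**Figure D4:**
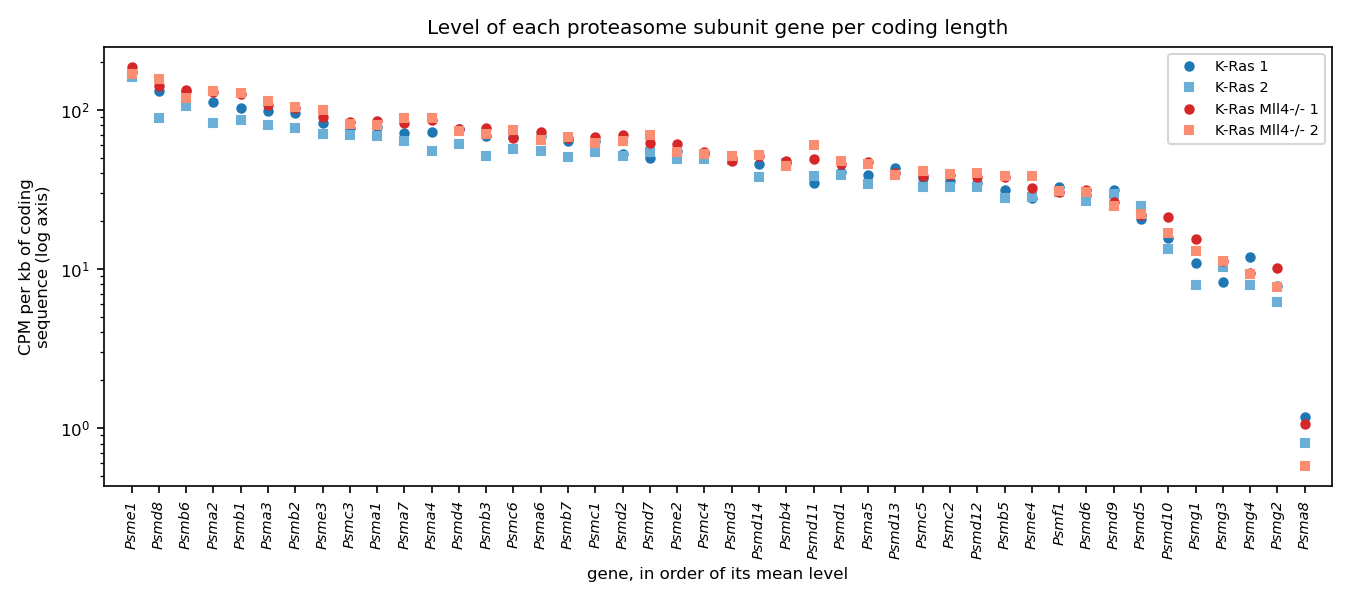
Level of each tested member (CPM per kb of coding sequence, y axis, log scale) in each of the 4 samples, with members in order of their mean level (x axis) and Psmb11 left out. Levels decline gradually from Psme1 (mean 172) through the core and cap subunits, the core assembly chaperones Psmg1 to Psmg4 come last but for Psma8, and Psma8 is lowest at 0.909.

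Across the 44 tested members, the log2 difference had a Pearson correlation of -0.01 with log2 transcript length, of 0.31 with the log2 mean CPM and of -0.19 with GC content (Spearman 0.00, 0.17 and -0.27). These describe genes that share the same libraries. Psma8, with the lowest CPM and the most negative difference of the 44, was among them, and the correlations were not taken without it.

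The pathway around the proteasome was read from a list of 29 genes, of which 28 were tested. They were inducible subunits, cap parts named otherwise, the maturation factor, deubiquitinases, ubiquitin shuttles, ubiquitin, p97, transcription regulators and other associated genes such as Txnl1. By edgeR's quasi-likelihood test 0 were called, 7 were higher at an unadjusted p under 0.05 (11.4% of all genes tested were), 0 were lower, and the median log2 difference was 0.18. For 17 the K-Ras Mll4-/- samples were both above the K-Ras samples, as for 29.9% of all genes tested. Both DESeq2 and edgeR's likelihood ratio test called 4 of the 28 as higher, Nfe2l2, Usp14, Shfm1 and Txnl1, and limma-voom called 0. Over all genes, in either direction, DESeq2 called 10.4% of those to which it gave an adjusted p, and the likelihood ratio test 9.39%. Txnl1 had a log2 difference of 0.62 ± 0.13 (adjusted p = 0.154 by edgeR's quasi-likelihood test). Nfe2l2, which encodes NRF2, the regulator of the antioxidant response, had the highest difference, with 179 and 231 CPM in K-Ras and 315 and 439 in K-Ras Mll4-/-. Its groups were apart, and the difference was 0.88 ± 0.24 (adjusted p = 0.178; 0.0239 by DESeq2). Nfe2l1, which encodes NRF1, the activator of proteasome genes when the proteasome is inhibited, had 294 and 321 CPM in K-Ras and 304 and 304 in K-Ras Mll4-/-, a difference of -0.02. Ddi2, the protease that activates NRF1, had the lowest difference, at -0.19 ± 0.15 (adjusted p = 0.504). Its values were 75.1 and 91.0 CPM in K-Ras and 76.8 and 68.8 in K-Ras Mll4-/-, and the groups overlapped.

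Other parts and partners of the proteasome fall outside the naming rule, and the following ones are named here after their values were seen. Usp14, a deubiquitinase of the cap, had 44.4 and 39.6 CPM in K-Ras and 75.4 and 73.4 in K-Ras Mll4-/-. The groups were far apart relative to their spread, with a log2 difference of 0.83 ± 0.13 (adjusted p = 0.138 by edgeR's quasi-likelihood test, and 0.00233 by DESeq2). Uchl5, the other cap deubiquitinase of this kind, had a difference of 0.60 ± 0.21 (adjusted p = 0.217). Shfm1, also known as Sem1, the smallest part of the lid, had 83.3 and 61.0 CPM in K-Ras and 112 and 134 in K-Ras Mll4-/-, a difference of 0.77 ± 0.21 (adjusted p = 0.177, and 0.0466 by DESeq2). Adrm1, a ubiquitin receptor that docks Uchl5, was at 0.20, and Pomp, the maturation factor of the core, at 0.32. Each of these 5 genes had both K-Ras Mll4-/- samples above both K-Ras samples.

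Other large complexes present in every cell were set beside the proteasome. The 8 genes of the cytosolic chaperonin CCT, which folds actin and tubulin, had a median log2 difference of 0.60. All 8 had both K-Ras Mll4-/- samples above both K-Ras samples and an unadjusted p under 0.05. The 82 tested cytosolic ribosomal protein genes had a median of 0.59, with 76 not overlapping and higher and 51 higher at an unadjusted p under 0.05. Against these, the proteasome median was 0.22, with 28 of 44 not overlapping and 3 of 44 at that p, where all genes tested gave 29.9% and 11.4%. No gene of these 3 lists was called by edgeR's quasi-likelihood test or by limma-voom. DESeq2 called 4 of the 8 chaperonin genes, 22 of the 82 ribosomal protein genes and 0 of the 44 members, and the likelihood ratio test called 3, 16 and 0. The shares of all genes called by these tests, in either direction, were 10.4% and 9.39%. The difference between the lists was not tested.

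**Figure D5:**
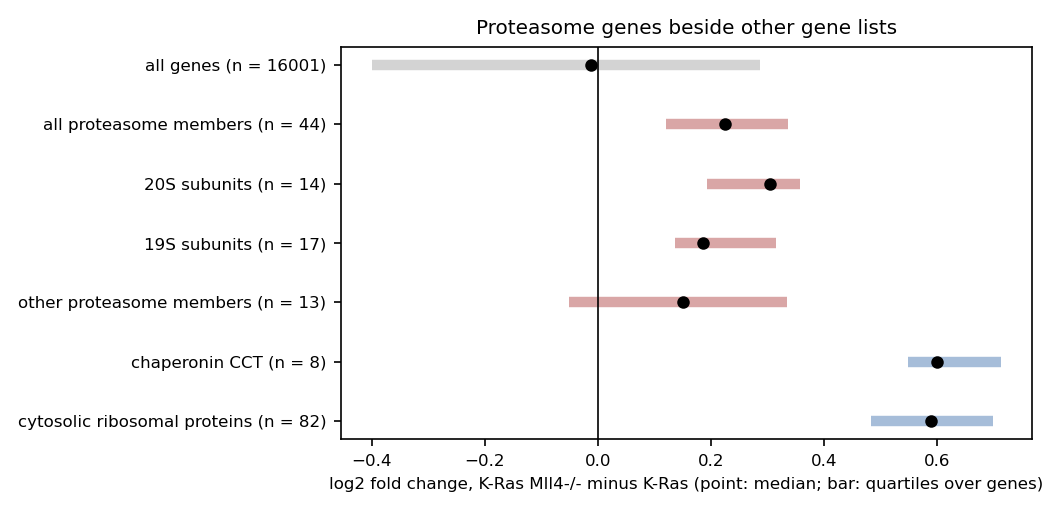
Median (point) and quartiles over genes (bar) of the log2 fold change (x axis, K-Ras Mll4-/- minus K-Ras) for all genes tested, the 44 proteasome members, their core, cap and other parts, the chaperonin CCT and cytosolic ribosomal proteins (y axis). The proteasome medians lie between 0.15 and 0.30, between that of all genes (-0.01) and those of the ribosomal proteins (0.59) and the chaperonin (0.60).

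Counts of some members depend on how reads near other genes were assigned. In the GRCm38 annotation 11 members share exon bases with another gene, and 9 of them with a gene on the opposite strand, such as Psmd13 with Sirt3 over 342 bases. Reads that aligned to more than 1 place were left out of the deposited gene counts, so a member with close copies can be undercounted. Psme2b, a near copy of Psme2 outside the naming rule, had 9.12 and 9.85 CPM in K-Ras and 8.07 and 8.38 in K-Ras Mll4-/-, and reads shared between both genes cannot be placed.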

How the data were processed

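RNA-seq of 4 CD45-depleted mouse lung tumour samples (2 K-Ras, 2 K-Ras Mll4-/-) was analysed. The deposited files hold unnormalised counts, as whole reads, for each gene symbol. The tools and build named are CASAVA 1.4, STAR, HTSeq and mm9, per the submitters' processing notes; the strand setting and annotation are not given in the sources used here. Closing tally lines that name no gene were left out, and genes held 56.3% and 56.9% of uniquely aligned reads in K-Ras and 61.8% and 60.3% in K-Ras Mll4-/-. Groups and replicate numbers came from the sample titles.

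Genes were filtered with filterByExpr, scaled by TMM and fitted over all 16001 genes with edgeR 4.0.16 (R 4.3.3), robust quasi-likelihood test and Benjamini-Hochberg adjustment, called at an adjusted p under 0.05. A standard error is the log2 fold change divided by the square root of F. Tools for alternatives were DESeq2 1.42.0, limma 3.58.1 and mgcv 1.9.3 (GC and length offsets). The fit was tested on simulated data. Lengths, coding lengths and GC content came from the GENCODE M21 annotation of GRCm38, for 15864 of the tested genes, in place of coding lengths of RefSeq proteins, and promoters from RefSeq. The authors' build differs, so no other coordinates are given.

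The members, roles and lists were chosen with earlier results of these data known. Values in every sample are given for the catalytic subunits, members called, the highest and lowest log2 fold change of each role group, members not tested, Kmt2d, Ptprc, Psmb8, Psmb9, Psmb10 and the highest and lowest related gene; others named were chosen after their values were seen. Alternatives covered scaling, count filters, GC and length offsets, the replicate block, other tests and leaving out each sample. Paaf1 was not analysed here.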

Additional observations from a re-analysis of the deposited data

How the results depend on the processing

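Under 15 alternatives no member was called, and the smallest adjusted p of any member was 0.0997. Of 659 member values, 640 kept their direction and 19 changed sign (11 members); 33 members kept their sign throughout. The median of the members lay between 0.095 and 0.29, both ends from leaving out a K-Ras sample. The number of genes called depended on the test: 6 by the main test, 0 by limma-voom, 1503 by the likelihood ratio test, 1601 by DESeq2, 44 with no count filter, and 0 to 524 when 1 sample was left out. The cause was not tested.

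Members higher at an unadjusted p numbered 3 (6.82%; all genes 11.4%), and 1 with upper quartile scaling, total counts, DESeq2 or the likelihood ratio test. The shares of all genes under the alternatives of this paragraph are not given here, so these member counts have no background beside them. Members lower without overlap numbered 1, and 4 with upper quartile scaling, 2 with GC and length offsets, and 2 to 7 when 1 sample was left out. Same-numbered samples share a number, and the labels do not say what it marks or whether anything else was shared. Their deviations from the group means correlated at 0.24 over all genes and at 0.29 over the members. The source of this correlation was not tested. The genes called numbered 217 with the replicate block and 424 with GC and length offsets as well, with no member among them; 5 members were higher at an unadjusted p with the block alone and 3 with the block and offsets, and 2 were lower without overlap with the block and offsets.

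Signs changed as follows. Psmd3 stood at -0.048 with upper quartile scaling, -0.043 with total counts and -0.0053 with a stricter count filter; Psmb10 at -0.027 and -0.021 with the same scalings. With GC and length offsets Psma1 was at -0.012, Psma6 at -0.0036, Psmb9 at 0.0024 and Nfe2l1 at 0.14, and with the replicate block as well Psma1 was at -0.012, Psma6 at -0.00070 and Nfe2l1 at 0.14. Leaving out 1 sample gave Psma8 -0.77 to 0.091, Psmd13 -0.14 to 0.024, Psmf1 -0.11 to 0.0092, Psmg4 -0.37 to 0.24, Psma6 -0.011 to 0.32, Psmb6 -0.080 to 0.25, Psmd4 -0.040 to 0.30, Psmd3 -0.051 to 0.056, Psmd5 -0.18 to 0.070, Psmb9 -0.21 to 0.15, Psmb10 -0.25 to 0.26, Nfe2l1 -0.080 to 0.032, Psmb8 -0.095 to 0.28 and Psmb4 -0.068 to 0.030. The level range of the core by transcript length was 4.52-fold. With 2 samples a group and 14 to 27 reads, Psma8 could not show a difference of the size seen in other members, and single samples set the direction of members near 0.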
